A study of Mus musculus with 48 samples.

Results

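The 8 loci examined here are the genomic windows around genes that mark endothelial cells (Pecam1, Kdr, Cdh5 and Erg) and fibroblasts (Col1a1, Col3a1, Pdgfra and Dcn). Members are the merged accessible regions (peaks) of the deposited list whose centre lies in 1 of the windows. There were 105 of 114043 such peaks, 66 in the endothelial windows and 39 in the fibroblast windows. Open chromatin had been profiled by ATAC-seq, an assay in which Tn5 transposase tags accessible DNA, in tumors of mice that develop small cell lung cancer. All groups share the alleles given as Trp53-/-;Rb1-/-;p130-/-;R26mG, and Cre recombinase was delivered by an adenovirus. The groups of the CMV comparison carried Ad-CMV-Cre, which uses the broadly active CMV promoter. They were 8 libraries with amplification of Nfib, a transcription factor gene, from 2 lung tumors, 5 liver metastases and 1 lymph node metastasis, and 7 libraries without amplification, all from lung tumors. The groups of the CGRP comparison carried Ad-CGRP-Cre, whose promoter belongs to a peptide of neuroendocrine cells. They were 7 liver metastases and 11 lung tumors, of which 1 was Nfib-amplified. Ages were not given in the sources used here.

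Endothelial cells line blood vessels, and fibroblasts make the collagen-rich matrix between other cells; solid tumors recruit both from the host. Regulatory elements at the identity genes of a cell type are usually open in that cell type and closed in most others. A bulk ATAC-seq library from a tumor or metastasis can therefore hold signal from tumor cells and from the host cells among them. Whether cells were sorted before lysis was not given in the sources used here.

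Among the endothelial windows, Kdr encodes the main VEGF receptor and Pecam1 and Cdh5 encode adhesion molecules of endothelial junctions. Erg encodes an ETS-family transcription factor of endothelial cells. Among the fibroblast windows, Pdgfra encodes a receptor for platelet-derived growth factor. Col1a1 and Col3a1 encode chains of the fibrillar collagens type I and type III, and Dcn encodes decorin, a proteoglycan that binds collagen fibrils. In build mm9, 1-based, the windows were Kdr chr5:76250000-76480000, Pecam1 chr11:106450000-106650000, Cdh5 chr8:106550000-106720000 and Erg chr16:95450000-95850000. The fibroblast windows were Pdgfra chr5:75450000-75700000, Col1a1 chr11:94730000-94860000, Col3a1 chr1:45300000-45450000 and Dcn chr10:96880000-97050000. Names of genes next to each locus were read from RefSeq on GRCm38.p6, for example Kit between Pdgfra and Kdr, Lum beside Dcn, Bean1 beside Cdh5 and Sgca beside Col1a1. A window can hold such a neighbour, and no annotation of mm9 was used here, so a peak is placed in a window, not assigned to a gene, exon or intron.

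The RefSeq promoter table (GRCm38.p6) matched 4 of the 8 loci, with 1 start each for Kdr, Pdgfra and Col3a1 and 3 for Erg. Pecam1, Cdh5, Col1a1 and Dcn had no matching entry. The 250 bases before the start are printed for the receptor genes of either cell type and for 1 start of Erg, since Kdr and Erg were the windows whose medians lay farthest above those of their surroundings. Capitals mark 2 motifs searched on both strands. They are the half-site TTGGC of the nuclear factor I family, to which Nfib belongs, and CGGAA, 1 form of the ETS core. Other forms of that core were not searched and are not marked. On the opposite strand the half-site reads GCCAA. There CGGAA reads TTCCG. No marked stretches overlap. The stretches are Kdr chr5:75978456-75978705 (minus strand), the third start of Erg chr16:95459349-95459598 (minus strand) and Pdgfra chr5:75152001-75152250 (plus strand), in GRCm38.p6.
Kdr: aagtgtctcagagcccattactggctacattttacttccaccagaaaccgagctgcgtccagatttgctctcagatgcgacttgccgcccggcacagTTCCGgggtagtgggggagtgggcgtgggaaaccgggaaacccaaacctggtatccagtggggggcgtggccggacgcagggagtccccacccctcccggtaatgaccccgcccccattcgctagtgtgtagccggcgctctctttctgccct
Erg, start 3: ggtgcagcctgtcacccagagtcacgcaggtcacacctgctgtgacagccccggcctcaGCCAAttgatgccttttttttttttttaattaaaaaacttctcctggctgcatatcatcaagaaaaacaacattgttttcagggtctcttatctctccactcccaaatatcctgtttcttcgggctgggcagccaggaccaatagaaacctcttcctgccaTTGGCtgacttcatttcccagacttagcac
Pdgfra: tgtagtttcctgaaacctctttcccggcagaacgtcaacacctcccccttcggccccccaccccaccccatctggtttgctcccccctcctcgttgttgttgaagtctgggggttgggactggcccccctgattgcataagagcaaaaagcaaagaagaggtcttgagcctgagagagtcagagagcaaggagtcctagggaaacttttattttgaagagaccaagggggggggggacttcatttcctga
The half-site was found on either strand in 41.5% of 32851 RefSeq promoters of this length, and CGGAA in 25.2%. The Kdr stretch held 1 CGGAA, 153 bases before the start, and 0 nuclear factor I half-sites. The Erg stretch held 2 half-sites, 191 and 30 bases before the start. The Pdgfra stretch held neither motif in the form searched. Starts 1 and 2 of Erg, not printed here, held 1 half-site each and 0 CGGAA, so the printed start held the most half-sites of the 3. The Col3a1 start held 0 of either motif. Because the builds differ, no mm9 peak could be placed on any of these stretches.

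The merged peaks covered 7 of the 8 windows. Erg had 21 peaks, Cdh5 18, Pecam1 16, Pdgfra 14, Col1a1 13, Dcn 12 and Kdr 11. Per 100 kb this came to 10.6 peaks at Cdh5, the densest window, against 4.78 at Kdr and 5.25 at Erg. The Col3a1 window held 0 peaks. On chromosome 1 the nearest listed peaks ended at 41867700 and began at 48436996, and no summit was listed between 45079237 and 45791086 in any of the 3 pools. Whether this stretch was closed or lies outside what the lists used here hold cannot be told apart, so Col3a1 is not analysed further here. Over the 105 members, the authors' deposited table gave a median mean count of 21.5, with a range of 3.11 to 309, against a median of 21.2 over all merged peaks. The mean count is normalised and averaged over libraries. The members were thus spread over low and high signal, with 53 of 105 above the overall median. The tables used here give no value of a single library, so none can be shown per tumor and library depth is unknown.

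In the CMV comparison, accessibility was higher in Nfib-amplified libraries at 32 member peaks and lower at 12, and 61 were not called. The threshold was 0.05 on the adjusted p of the authors' deposited table, whose columns carry the names of DESeq2 output. The raised share was 30.5%, against 34.3% of all 113873 tested peaks, and the lowered share was 11.4%, against 12.2%. These shares lie near the background. By the authors' deposited table, the median log2 fold change of the members was 0.43 with quartiles of -0.24 and 1.49. The median over all peaks was 0.60, so the members' median became -0.17 relative to it. After centring on that median, a z test with the deposited SE called 13 members raised (12.4%, against 19.9% of all peaks) and 25 lowered (23.8%, against 25.6%). The endothelial windows had 23 of 66 peaks raised (34.8%) and 6 lowered (9.09%), and the fibroblast windows had 9 of 39 raised (23.1%) and 6 lowered (15.4%). In these bulk values, a change in the share of cells of a type cannot be told apart from a change in accessibility per cell. Of the 8 amplified libraries 6 came from metastases, while all 7 others came from lung tumors, so tissue and amplification cannot be told apart. The labels describe all 8 amplified libraries as hyperaccessible. Members of 1 window are neighbours on 1 chromosome and are not independent replicates. The p-values measure the spread between libraries, and it was not given in the sources used here whether these came from separate animals.

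**Figure D1:**
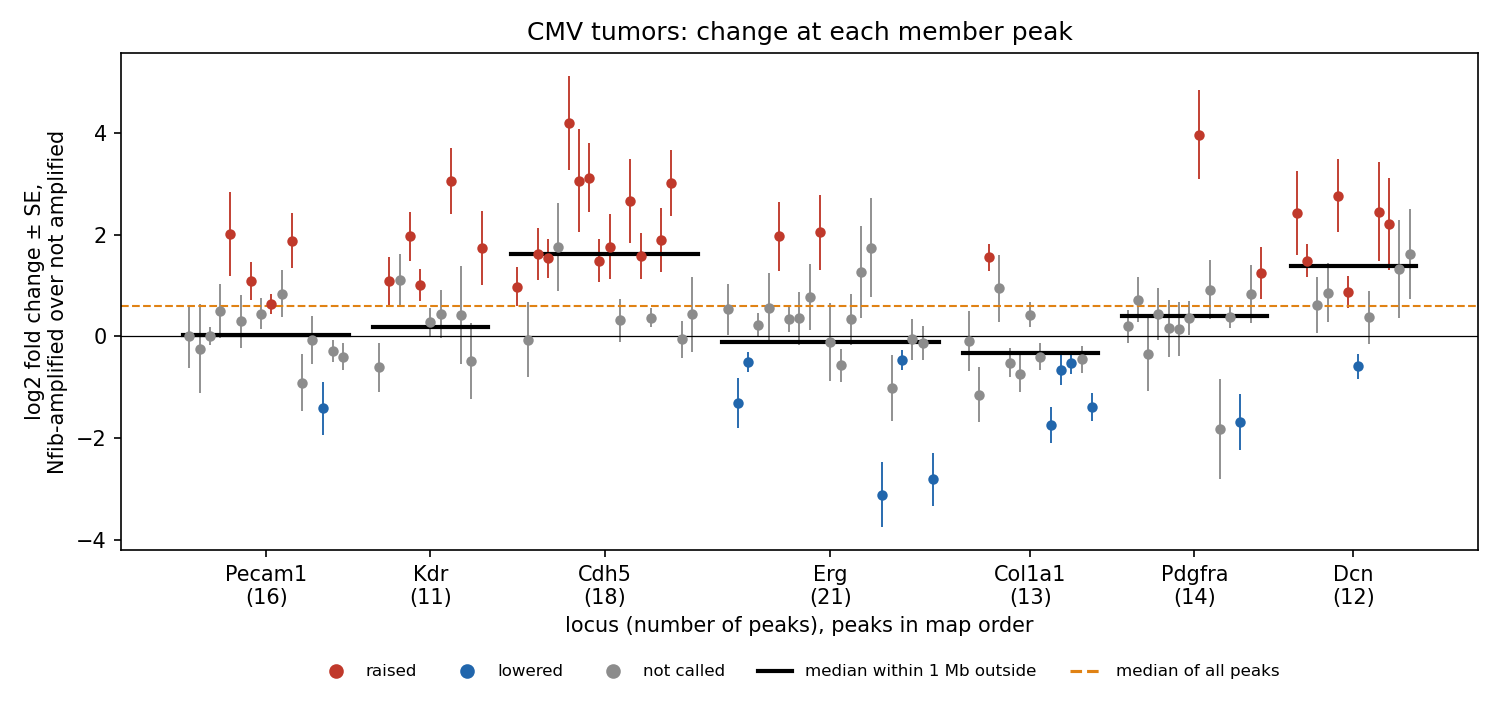
Log2 fold change, Nfib-amplified over not amplified CMV libraries, at each of the 105 member peaks in map order, with bars of 1 SE. Red points are raised, blue points lowered and grey points not called, all by the authors' deposited table; black lines are the medians of the peaks within 1 Mb outside each window and the dashed line is the median of all peaks. Raised points fill the Cdh5 and Dcn windows, where the black lines are also the highest, and lowered points lie mainly at Erg and Col1a1.

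The plot of changes at each member peak separates the windows. Median log2 fold changes from the authors' deposited table were 1.60 at Cdh5, 1.41 at Dcn, 1.01 at Kdr, 0.37 at Pdgfra, 0.22 at Erg, 0.15 at Pecam1 and -0.52 at Col1a1. Relative to the median of all peaks, only Cdh5 (0.99), Dcn (0.80) and Kdr (0.40) lay above 0, while Pdgfra (-0.23), Erg (-0.39), Pecam1 (-0.46) and Col1a1 (-1.12) lay below it. Medians on either side of that of all peaks thus occurred in both the endothelial and the fibroblast windows. In the paragraphs on single windows, the size of a rise or fall is a log2 fold change.

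The Kdr window had 5 of 11 peaks raised and 0 lowered. Its peak at chr5:76422745-76423245 rose most, with a log2 fold change of 3.05 (SE 0.65, 8.29-fold) and an adjusted p of 3.55e-05 in the authors' deposited table. The peak at chr5:76371380-76371880 rose by 1.96 (SE 0.49, adjusted p 4.10e-04), also by the authors' deposited table. Its neighbour at chr5:76374150-76374650 had the highest mean count of the window (117) and rose by 1.01 (SE 0.31, adjusted p 0.00426) by the authors' deposited table. The latter 2 peaks form a run of raised peaks that spans 3.27 kb. The change of the last of them is no longer called once the median of all peaks is subtracted.

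The Pecam1 window had 4 of 16 peaks raised and 1 lowered. Its peak at chr11:106499016-106499516 rose by a log2 of 2.01 (SE 0.83, adjusted p 0.0361) by the authors' deposited table, with a mean count of 14.6. A peak at chr11:106539170-106539670 had 1.88 (SE 0.54, adjusted p 0.00225) by the authors' deposited table. The strongest peak of the window, chr11:106535934-106536434 with a mean count of 171, rose by 0.63 (SE 0.20, adjusted p 0.00559) by the authors' deposited table. That rise is close to the median of all peaks. After centring, neither this peak nor that at chr11:106499016-106499516 was called (adjusted p 0.915 and 0.155, z test), while chr11:106539170-106539670 was. The lowered peak, chr11:106570927-106571427, was at -1.42 (SE 0.51, adjusted p 0.0161) by the authors' deposited table. It lies on the opposite side of the window centre from the raised peaks.

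At Cdh5, which encodes VE-cadherin, 12 of 18 peaks were raised and 0 lowered. The peak at chr8:106589101-106589601 had the largest rise of all members, with a log2 fold change of 4.20 (SE 0.93, 18.3-fold) and an adjusted p of 7.13e-05 in the authors' deposited table. Within the window the peak at chr8:106599946-106600446 came second with 3.12 (SE 0.69, adjusted p 6.02e-05) by the authors' deposited table. Both belong to a run of 5 adjacent raised peaks, chr8:106589101-106602892, that spans 13.8 kb with log2 fold changes of 1.49 to 4.20 in the authors' deposited table. The strongest peak of the window, chr8:106694296-106694796 with a mean count of 98.0, was not called (0.37, SE 0.19, adjusted p 0.101 by the authors' deposited table). After centring, 6 Cdh5 peaks stayed called as raised (33.3%, against 34.8% of the peaks within 1 Mb outside and 19.9% of all peaks).

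At Erg, 5 of 21 peaks were lowered and 2 raised. The largest fall of all members was at chr16:95794700-95795200, at -3.11 on the log2 scale (SE 0.64, adjusted p 1.92e-05) by the authors' deposited table. The peak at chr16:95841672-95842172 fell by 2.82 (SE 0.51, adjusted p 1.30e-06) by the authors' deposited table. Between them lies the strongest peak of the window, chr16:95807038-95807538 with a mean count of 166, at -0.46 (SE 0.20, adjusted p 0.0410) by the authors' deposited table. These 3 lowered peaks sit at the high-coordinate end of the window, 145, 157 and 192 kb from its centre. The raised peaks lie on the other side of the centre, at chr16:95583536-95584036 with 1.97 (SE 0.67, adjusted p 0.0106) and chr16:95607426-95607926 with 2.04 (SE 0.74, adjusted p 0.0162) by the authors' deposited table. Neither raised peak was called after centring, whereas all 5 lowered peaks were. Subtracting a positive median moves lowered values away from 0 and raised values towards it. That contrast therefore follows from the subtraction and does not show that the falls were firmer than the rises. The lowered share after centring was 33.3%, against 48.8% of the peaks within 1 Mb outside and 25.6% of all peaks.

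Among the fibroblast windows, Pdgfra had 2 of 14 peaks raised and 1 lowered. The peak at chr5:75580157-75580657 rose by a log2 of 3.97 (SE 0.88, 15.7-fold, adjusted p 6.58e-05) by the authors' deposited table. Its mean count was low, at 11.7. A peak at chr5:75685154-75685654 had 1.24 (SE 0.51, adjusted p 0.0360) by the authors' deposited table. It was not called after centring (0.64, adjusted p 0.307, z test). The lowered peak, chr5:75644217-75644717, was at -1.69 (SE 0.56, adjusted p 0.00818) by the authors' deposited table. It lies beside the strongest peak of the window, chr5:75643145-75643645 (mean count 130), which was not called (0.38, SE 0.22, adjusted p 0.149 by the authors' deposited table).

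Before centring, Col1a1 was the only window of the 7 with a median below 0, with 4 of 13 peaks lowered and 1 raised. The raised peak, chr11:94736237-94736737, rose by a log2 of 1.56 (SE 0.27, adjusted p 3.21e-07) by the authors' deposited table. At the opposite end, chr11:94846410-94846910 fell by 1.74 (SE 0.36, adjusted p 1.70e-05) by the authors' deposited table. The strongest peak of the window, chr11:94854169-94854669 with a mean count of 97.5, fell by 1.39 (SE 0.28, adjusted p 1.18e-05) by the authors' deposited table. The lowered peaks included a run of 3 adjacent peaks, chr11:94846410-94852513, that spans 6.10 kb. After centring, 9 of the 13 peaks were called lowered (69.2%, against 56.5% of the peaks within 1 Mb outside and 25.6% of all peaks).

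Dcn had 6 of 12 peaks raised (against 51.3% of the peaks within 1 Mb outside and 34.3% of all peaks) and 1 lowered. The peak at chr10:96931996-96932496 rose by a log2 of 2.77 (SE 0.72, adjusted p 7.49e-04) by the authors' deposited table, and that at chr10:96976009-96976509 had 2.45 (SE 0.97, adjusted p 0.0281). The mean counts behind them were 16.2 and 3.73. The second was not called after centring (1.85, adjusted p 0.106, z test). The lowered peak, chr10:96937900-96938400, had the highest mean count of all 105 members (309, above 99.0% of all peaks) and fell by 0.59 (SE 0.25, adjusted p 0.0393) by the authors' deposited table. A further strong peak, chr10:96899325-96899825, named after its values were seen, had a mean count of 234 and rose by 1.49 (SE 0.33, adjusted p 5.44e-05) by the authors' deposited table. Strong peaks of the Dcn window thus changed in both directions. After centring, 2 Dcn peaks stayed called as raised (16.7%, against 30.7% of the peaks within 1 Mb outside and 19.9% of all peaks).

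**Figure D2:**
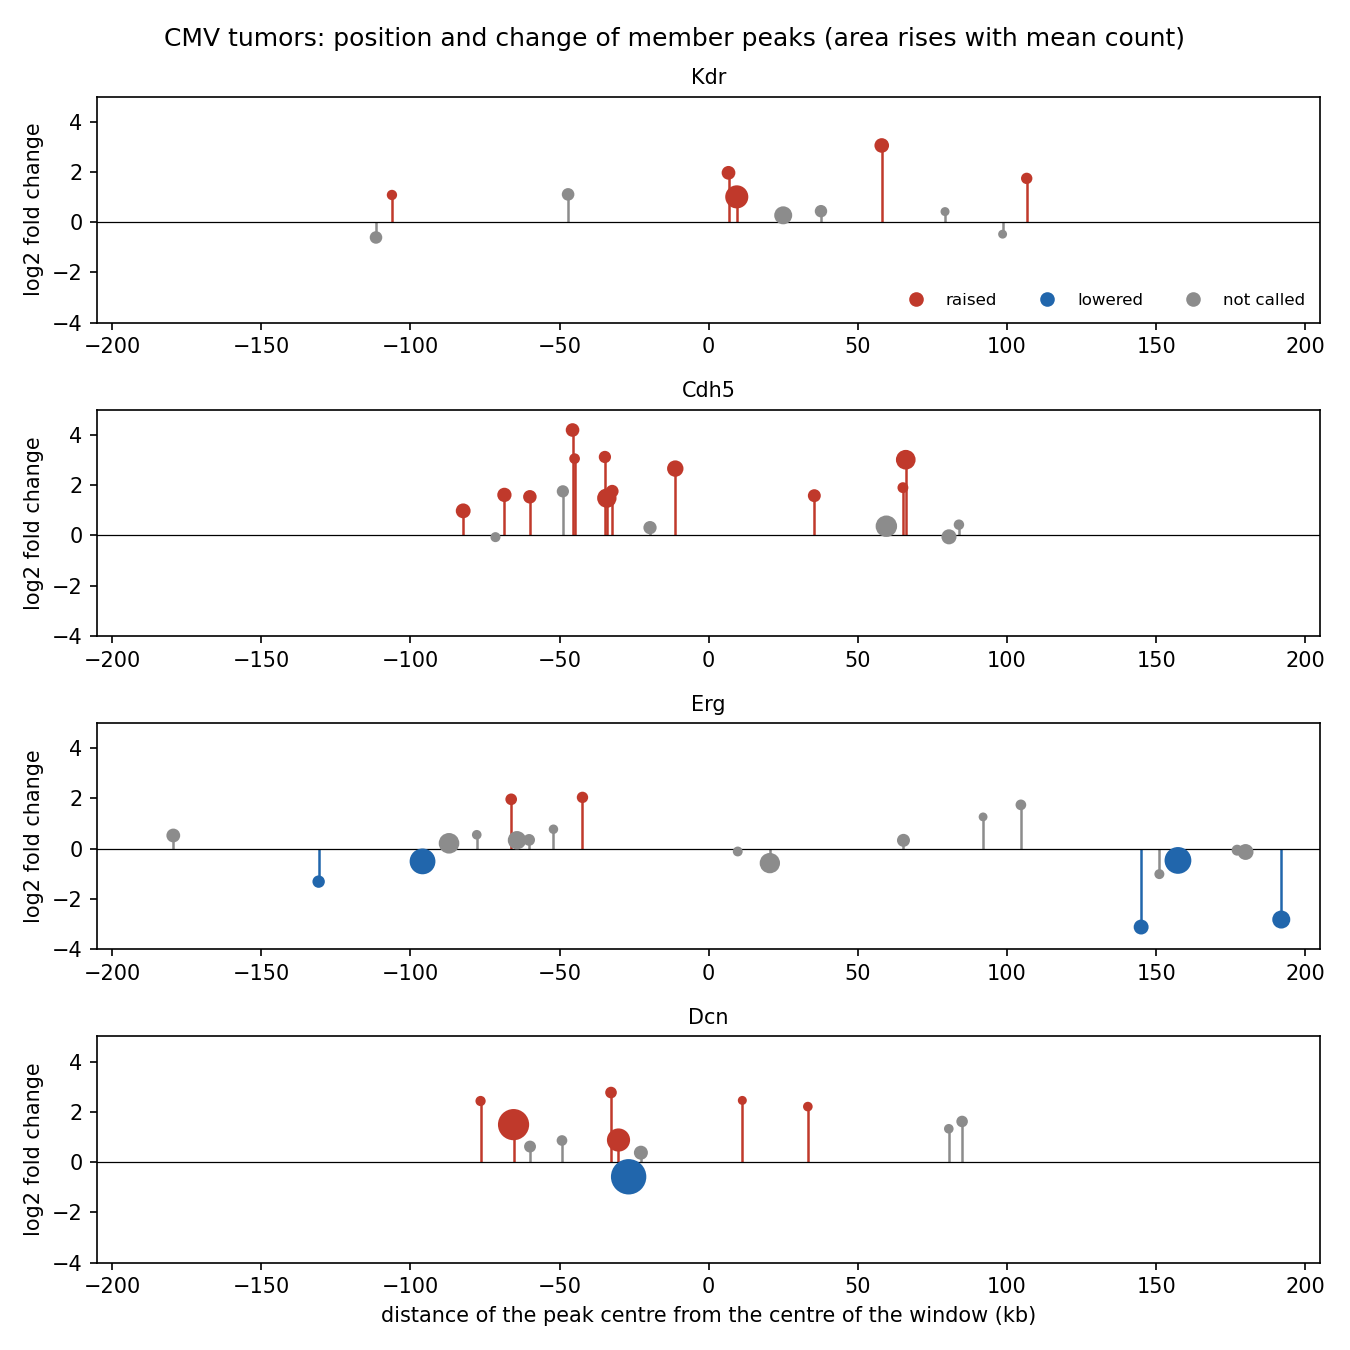
Position of the member peaks of the Kdr, Cdh5, Erg and Dcn windows (x axis, distance of the peak centre from the window centre in kb) and their log2 fold change in the CMV comparison (y axis), with point area rising with the mean count. Red is raised, blue lowered and grey not called. The 5 adjacent raised peaks of Cdh5 stand together left of the centre, and 3 of the 5 lowered Erg peaks stand at the right end.

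A further set of deposited p-values, which tests for changes beyond 0.5 on the log2 scale, called 13 members raised (12.4%, against 19.0% of all peaks) and 4 lowered (3.81%, against 4.64%). Of the 13 raised, 6 were at Cdh5, 2 each at Kdr and Dcn, and 1 each at Pecam1, Col1a1 and Pdgfra. The 4 lowered peaks were 2 at Erg and 2 at Col1a1. Both shares were again no higher than those of all peaks.

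Values outside the windows lay close to those inside at most loci. Within 1 Mb on either side of the windows lay 910 other peaks, with a median log2 fold change of 0.20 from the authors' deposited table, 28.1% raised and 16.7% lowered. Next to Cdh5 the median was 1.62 and next to Dcn 1.39, close to the 1.60 and 1.41 inside those windows. Next to Col1a1 it was -0.33, against -0.52 inside. Window and flank medians lay within 0.2 of each other at 5 of the 7 loci. The exceptions were Kdr, at 1.01 inside against 0.18 outside, and Erg, at 0.22 inside against -0.11 outside. The raised share was higher inside than outside at Pecam1 (25.0% against 17.1%), Kdr (45.5% against 28.2%) and Cdh5 (66.7% against 51.5%). It was lower inside at Pdgfra (14.3% against 28.7%) and Erg (9.52% against 15.2%). Inside and outside shares were close at Dcn (6 of 12 peaks against 51.3%) and Col1a1 (7.69% against 7.79%). After centring, raised shares inside and outside were 6.25% and 8.94% at Pecam1, 18.2% and 16.9% at Kdr, and 33.3% and 34.8% at Cdh5. At Dcn the centred raised share was lower inside (16.7% against 30.7%). These are descriptions without a test, and the flanks of Kdr and Pdgfra share 75 peaks.

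**Figure D3:**
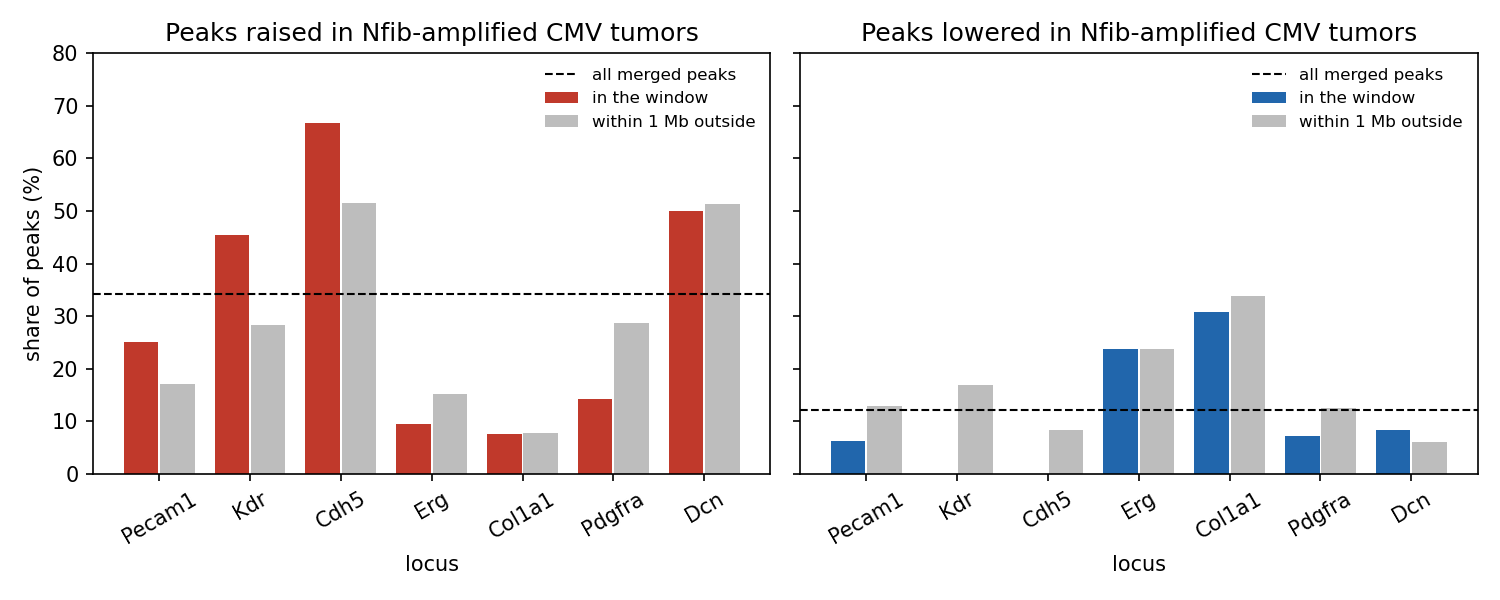
Share of peaks raised (left) and lowered (right) in Nfib-amplified CMV libraries, in percent, for each window (colored bars) and for the peaks within 1 Mb outside it (grey bars). The dashed lines mark the shares over all merged peaks, 34.3% and 12.2%. For windows and surroundings alike, Cdh5 and Dcn are highest for raised peaks and Erg and Col1a1 for lowered peaks; at Pdgfra the raised bar of the window (14.3%) is below that of its surroundings (28.7%).

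In the CGRP comparison, liver metastasis over lung tumor, the authors' deposited table called 0 of 101 members with an adjusted p as raised and 0 as lowered. Over all peaks with an adjusted p, the DESeq2 columns called 0.0752% raised and 0.779% lowered, so few calls are found anywhere in this comparison. At an unadjusted p under 0.05 there were 10 members, 7 higher in liver metastases (6.67%, against 3.37% of all peaks) and 3 lower (2.86%, against 6.25%). The centred z test also called 0. All 7 liver metastases were in preparation batch 2, against 7 of the 11 lung tumors, with 4 in batch 3; the part of batch in these values was not tested. By the authors' deposited table, the median log2 fold change of the members was 0.15, against 0.01 over all peaks and 0.07 within 1 Mb outside the windows. At the median SE of the members (0.45), an unadjusted 95% interval reaches 0.884 to either side of a value (1.96 SE). The limit after adjustment is wider.

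The lowest adjusted p among members was 0.0813, at the strongest Pdgfra peak, chr5:75643145-75643645, with a log2 fold change of -0.64 (SE 0.19) by the authors' deposited table. The next was the Erg peak at chr16:95794700-95795200, with -1.80 (SE 0.57, adjusted p 0.103) by the authors' deposited table. That peak also had the largest fall in the CMV comparison. Over all peaks, 58312 of 114043 had a CGRP value above 0. At Erg, 17 of 21 peaks did, with a median of 0.26 in the authors' deposited table, against 0.07 in its flanks. At Dcn, 10 of 12 peaks had a value below 0, with a median of -0.42 in the authors' deposited table, against 0.10 in its flanks. The other medians were 0.46 at Pdgfra, 0.34 at Cdh5, 0.20 at Kdr, 0.15 at Col1a1 and 0.09 at Pecam1 in the authors' deposited table. Their flanks had, in the same order, 0.01, -0.14, -0.07, 0.13 and 0.16. No peak behind these medians passed the test.

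The comparisons use different libraries, so the difference between their log2 fold changes was tested per peak (two-sided z test, Benjamini-Hochberg over 113873 peaks). The change was higher in the CMV comparison at 14 members (13.3%, against 17.8% of all peaks) and higher in the CGRP comparison at 5 (4.76%, against 5.62%). Of the 14, 5 were at Cdh5, 3 at Dcn, 2 each at Kdr and Pdgfra, and 1 each at Pecam1 and Col1a1. Of the 5, 3 were at Col1a1 and 2 at Erg. Both shares were below those of all peaks. With each comparison centred on its median, 4 members were higher in CMV (3.81%, against 9.12% of all peaks) and 15 in CGRP (14.3%, against 15.9%). The 4 were 2 at Dcn and 1 each at Cdh5 and Col1a1, so Kdr, Pecam1 and Pdgfra lost all their CMV-higher calls, Cdh5 lost 4 of 5 and Dcn 1 of 3. All 5 CGRP-higher calls were kept. The CMV median is the higher of the medians, so centring lowers every difference by the same amount. Loss of CMV-higher calls and keeping of CGRP-higher calls therefore follow from the subtraction.

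The largest difference was at the Cdh5 peak chr8:106589101-106589601, at 4.65 (SE 1.34, adjusted p 0.00556), with -0.46 (SE 0.96) in the CGRP comparison by the authors' deposited table. The second Cdh5 peak, chr8:106599946-106600446, had 0.29 (SE 0.62) in CGRP by the authors' deposited table and a difference of 2.84 (adjusted p 0.0158), which was not called after centring (adjusted p 0.0583). At Kdr the difference was 2.57 (SE 0.90, adjusted p 0.0251) for chr5:76422745-76423245, which was at 0.48 (SE 0.62) in CGRP by the authors' deposited table. The Pecam1 peak chr11:106539170-106539670 differed by 2.04 (SE 0.73, adjusted p 0.0284), with -0.16 (SE 0.49) in CGRP by the authors' deposited table. These endothelial-window peaks rose in the CMV comparison and had CGRP values within 1 SE of 0. Of their differences, that of chr8:106589101-106589601 alone was also called after centring (adjusted p 0.0146).

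For the fibroblast windows, the Pdgfra peak chr5:75580157-75580657 differed by 3.45 (SE 1.23, adjusted p 0.0282), with 0.52 (SE 0.86) in CGRP by the authors' deposited table. The strongest Pdgfra peak differed by 1.02 (SE 0.30, adjusted p 0.00619), and neither difference was called after centring (adjusted p 0.0712 and 0.293). At Dcn, chr10:96976009-96976509 differed by 3.76 (SE 1.40, adjusted p 0.0355) on a mean count of only 3.73, and was not called after centring (adjusted p 0.0787). The stronger Dcn peak chr10:96899325-96899825 differed by 2.32 (SE 0.44, adjusted p 1.39e-05), with -0.83 (SE 0.29) in CGRP by the authors' deposited table. Col1a1 held differences of both signs. Its raised peak chr11:94736237-94736737 differed by 1.78 (SE 0.35, adjusted p 4.35e-05). Its lowered peaks chr11:94846410-94846910 and chr11:94854169-94854669 differed by -1.90 (SE 0.45, adjusted p 6.46e-04) and -1.24 (SE 0.37, adjusted p 0.00749). At Erg the peak chr16:95841672-95842172 differed by -2.27 (SE 0.68, adjusted p 0.00777) and the strongest peak by -0.71 (SE 0.26, adjusted p 0.0305). The Erg peak with the largest fall in the CMV comparison did not pass the difference test (-1.31, SE 0.86, adjusted p 0.262).

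**Figure D4:**
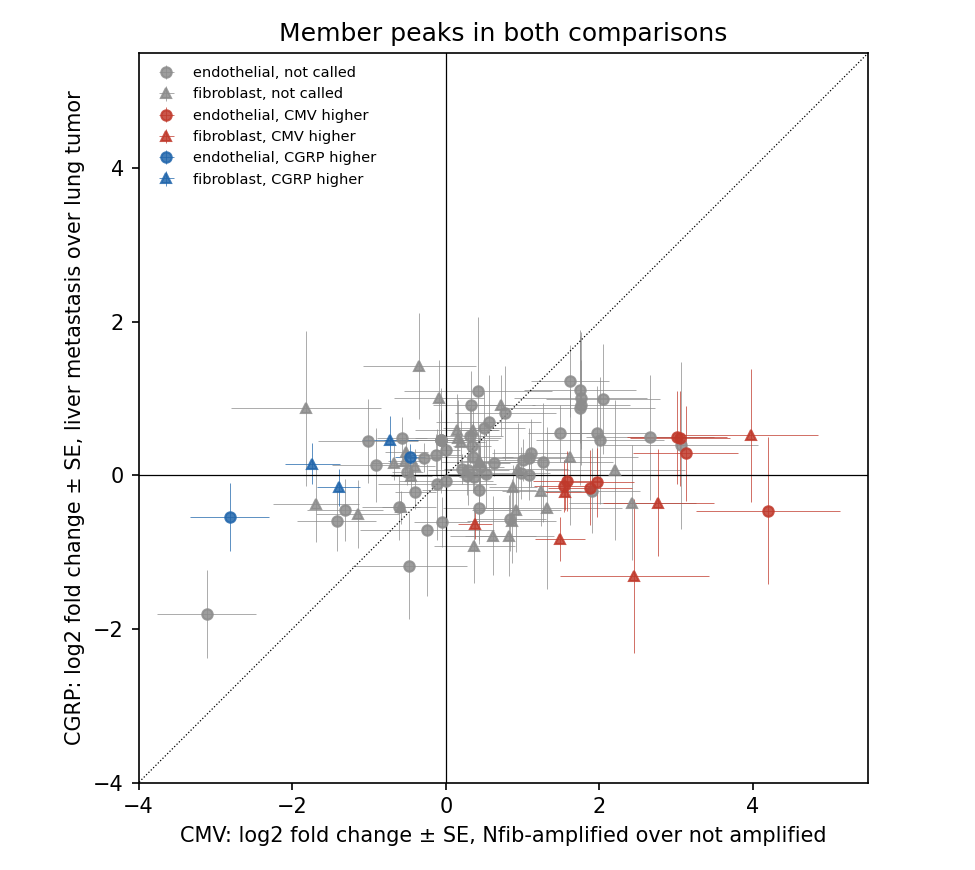
Log2 fold change of the 105 member peaks in the CMV comparison (x axis) against the CGRP comparison (y axis), with bars of 1 SE; circles are endothelial and triangles fibroblast windows. By the difference test, red points were higher in the CMV comparison (14) and blue points higher in the CGRP comparison (5); the dotted line marks equal change. Values spread from -3.11 to 4.20 along the x axis and from -1.80 to 1.43 along the y axis.

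In the plot of both comparisons the spread along the CMV axis is the wider. Across the members Pearson's r between the comparisons was 0.19, against 0.15 over all peaks. Within single windows r was 0.80 at Erg, 0.55 at Kdr, 0.27 at Pecam1, 0.09 at Dcn, 0.08 at Cdh5, 0.04 at Col1a1 and -0.10 at Pdgfra. These values are across peaks, which share libraries and neighbourhoods, and are given as a description.

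The authors called summits on 3 pools of libraries. These were a CMV pool of 19, of which 15 are labelled as having low ATAC-seq enrichment, a CGRP pool of 14 and a mixed pool of 15. The low-enrichment libraries were 7 of lung tumors and 8 of liver metastases, and 6 of them were Nfib-amplified. The mixed pool held 11 CMV and 4 CGRP libraries. Of the libraries of the CMV comparison, 2 amplified and 2 not amplified were in the CMV pool, and 6 and 5 in the mixed pool. A CMV-pool summit lay in 89 of 105 member peaks (84.8%, 95% Wilson interval 76.7 to 90.4, against 88.6% of all peaks). A CGRP-pool summit also lay in 89 (84.8%, against 75.0%), and a mixed-pool summit in 99 (94.3%, interval 88.1 to 97.4, against 89.5%). In all, 77 members (73.3%, against 64.8%) held summits of every pool. The chromatin of these windows was thus listed as open in pools of either vector. Of the 16 members without a CGRP-pool summit, 10 were raised and 0 lowered in the CMV comparison. Over all peaks, 17720 of the 28468 without a CGRP-pool summit were raised and 295 lowered, so the raised share of the members was close to theirs. A merged peak is centred on a summit of some pool. Peaks without a CGRP-pool summit thus entered the list through the CMV or the mixed pool, which hold the CMV libraries. The lean to raised peaks is therefore no separate support for a rise at these windows. The 10 members include the Cdh5 peaks chr8:106589101-106589601 and chr8:106599946-106600446, the Pecam1 peak chr11:106539170-106539670 and the Pdgfra peak chr5:75580157-75580657. The Dcn peaks chr10:96931996-96932496 and chr10:96976009-96976509 held a summit of the CMV pool alone. They thus had none of the mixed pool, which holds most libraries of the CMV comparison. At Dcn, 7 of 12 peaks had a CGRP-pool summit and all 12 had a CMV-pool summit. Vector, preparation batch, sequencing batch and the depth of a pool cannot be told apart here, and the pools have no replicates. The Wilson intervals cover counting error only.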

How the data were processed

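ATAC-seq was done on tumors and metastases in 48 libraries, of which 33 fell into the 4 groups compared; the labels mark the other 15 as low in enrichment. Titles of 15 libraries name re-analyses. Per the submitters' processing notes, mm9 was a build used and Bowtie2, MACS2 and DESeq2 were among the tools, with no version given. The deposited summit lists hold a score that was read as −log10 of a q-value from its smallest value (1.30). The authors' merged peaks are 501 bp long. Both deposited tables give a mean normalised count (a signal averaged over libraries by the authors), a log2 fold change with its SE, a Wald score, p-values and adjusted p-values, per the file headers. Directions rest on the tables' names. Covariates, filters and Tn5 shifts were not given in the sources used here. The description of 1 not amplified CMV library does not name its table. Preparation batch 1 held 2 amplified and 2 not amplified CMV libraries, and batch 3 held 6 and 5. All 7 CGRP liver metastases were in batch 2, while the CGRP lung tumors split into 7 in batch 2 and 4 in batch 3. The sequencing batch in the labels equals the preparation batch for all 33 compared libraries. Fitted tables give no value within a batch.

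Members were joined to both tables by name and called at an adjusted p under 0.05. An adjusted p was missing for 4 members in the CGRP table. The difference and centred z tests were run over all peaks, and their calculation was checked on simulated data. The simulation drew independent normal errors of the deposited SEs. It could therefore not test how the z tests behave at low counts or across neighbouring peaks. Named sites are, per locus, the peak with the highest mean count, up to 2 called peaks per direction with the largest log2 fold change, and the largest called difference. The members and lists were chosen with earlier results of these data known. Lists of other endothelial, fibroblast, hepatocyte and leukocyte genes could not be placed without an mm9 annotation and are not analysed here. Alternatives covered thresholds, centring, a mean count of at least 20, windows changed by 20 kb, flanks of 2 Mb and summit distance and score. The tools were Python 3.11.15 with pandas 2.3.3, numpy 2.4.6 and scipy 1.17.1, and matplotlib 3.10.9 for plots.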

Additional observations from a re-analysis of the deposited data

Results flagged for a closer look

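Summits in the windows that lie outside every merged peak enter no comparison. There were 91 such summits of the CMV pool, of 183 in the windows (49.7%, against 57.5% of that pool's whole list). The CGRP pool had 73 of 163 (44.8%, against 48.9%) and the mixed pool 77 of 177 (43.5%, against 48.6%). At Dcn the CMV pool had 30 summits, 17 of them outside merged peaks, against 9 (2 outside) in the CGRP pool and 11 (2 outside) in the mixed pool. At Kdr it had 28 (18 outside), against 19 (9) and 23 (12). At Erg the pools were close, with 46 (28 outside), 46 (26) and 49 (30). The CMV pool had fewer at Cdh5 (20, against 22 and 27) and Pdgfra (18, against 22 and 27). The whole lists hold 251512 summits for the CMV, 172434 for the CGRP and 206478 for the mixed pool. The filter that left these summits out of the merged list was not given in the sources used here, and no control library was used to set a background.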

How the results depend on the processing

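No paired analysis was possible because the tables hold no per-library values, and for the same reason no replicate could be left out. The count of 32 raised members in the CMV comparison became 19 at an adjusted p under 0.01, 13 against an absolute log2 fold change of 0.5, 13 after centring and 18 among peaks with mean counts of 20 or more. The count of 12 lowered members became 5 at 0.01, 4 against 0.5, 25 after centring and 7 in windows narrowed by 20 kb. The CMV median turned from 0.43 to -0.17 when centred on all peaks. Differences with the CMV change higher went from 14 to 5 at 0.01 and 4 after centring; those with the CGRP change higher went from 5 to 3, 15 and 2 (narrowed windows). Mixed-pool summits fell from 94.3% to 85.7% of members at a score of at least 5. Alternatives chosen after seeing the data were leaving out each locus, which gave 20 raised without Cdh5 and 7 lowered without Erg, and centring on the flanks, which gave 24 raised and 18 lowered. Stricter thresholds, fewer peaks and the subtracted median change these values by construction. The CGRP counts were 0 under every alternative run. Of 25 named sites, 8 lost their CMV call at 0.01, 7 after centring and 11 against 0.5. A threshold cannot change a sign, and no called site changed sign on centring. The strongest peaks of Cdh5 and Pdgfra had no call to lose. On centring, their values turned from 0.37 to -0.24 and from 0.38 to -0.22. Depth is unknown.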
